A study of Danio rerio with 8 samples.

Results

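Accessible chromatin was compared between tp63 mutant zebrafish embryos at 36 h post fertilization (36 hpf) and tp63 mutant embryos at 8 somites (8som), using ATAC-seq peak lists. All peaks of both mutant lists were used, 76556 at 36 hpf and 79893 at 8som. Merging peaks that overlapped by at least 1 bp gave 104377 mutant regions, of 137841 regions over the 4 lists of the series. Mutants carry a 4-bp deletion whose premature stop codon affects every tp63 isoform, and they make no p63 protein. They have skin and fin defects and die after hatching. Wild-type (WT) embryos at both stages served as reference, and every embryo was of the AB/Tübingen strain. Each group had 2 replicates, which the authors joined into 1 list of peaks reproducible between them. Peak positions do not allow a check of the genotype labels. Embryos were collected in small pools at 36 hpf, where mutants can be told by eye. At 8som each library was made from 1 embryo of a heterozygous cross and its genotype was read afterwards, so stage and preparation cannot be told apart in any difference below. With 1 list per group, replicate error could not be estimated and no test between stages was possible. Peak lists do not hold the read depth of a library, which stays unknown.

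In ATAC-seq, the Tn5 transposase cuts DNA where nucleosomes leave it exposed, and a peak marks a stretch that is cut more often than its surroundings. Such stretches include active promoters and enhancers, the short elements to which transcription factors bind. Between early segmentation and 36 hpf an embryo forms its organs and a differentiated skin, and enhancers open and close as cell types appear. p63 is a master regulator of the epidermis, and in human keratinocytes it is known to bind enhancers that are packed in nucleosomes. The stage comparison in mutants therefore asks which chromatin changes took place without it. In whole embryos, fewer cells with an open site and less opening per cell cannot be told apart.

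Peaks are called opened when the 36 hpf list had them and the 8som list had no peak overlapping them by at least 1 bp, closed when the reverse held, and kept when both lists had them. Opened peaks made up 33.2% of the 36 hpf list (25394 of 76556, 95% Wilson interval 32.8 to 33.5%). Closed peaks made up 35.4% of the 8som list (28295 of 79893, interval 35.1 to 35.7%). These and all later intervals cover counting error only. As shares of the 104377 merged regions, 24.3% were opened, 27.1% were closed and 48.6% (50688) were kept. Of the kept regions, 49389 had exactly 1 peak of each list. In WT embryos 29.8% of 36 hpf peaks were opened and 38.6% of 8som peaks were closed. Lists of one stage did not match fully either. A WT 36 hpf peak was found for 58.7% of opened and 88.8% of kept 36 hpf peaks of the mutant. At 8som a WT peak was found for 61.8% of closed and 91.6% of kept mutant peaks. The part of such mismatch in the opened and closed shares was not tested. The order of the opened and closed shares mainly follows list length. Kept peaks numbered 51162 in the mutant 36 hpf list and 51598 in the 8som list, so the longer list has the larger changed share. The WT lists held 84703 peaks at 36 hpf and 96625 at 8som, and there too the longer one had the larger share. No order of opening and closing is therefore read from these shares. When every list was limited to its 76556 strongest peaks, opened peaks made up 34.1% and closed peaks 33.8%. A limit was also set on the irreproducible discovery rate (IDR, the expected share of peaks that replicates do not reproduce). At an IDR of at most 0.01 the mutant lists held 48270 peaks at 36 hpf and 44785 at 8som. Opened and closed peaks then made up 34.7% and 29.2%.

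Opened and closed peaks were mainly weak ones. Within each list, peaks were ordered by −log10 p-value, then by fold enrichment where p-values were equal, and divided into 10 equal groups (deciles) of which decile 1 is the strongest. Only 0.614% of decile 1 at 36 hpf was opened (47 of 7656 peaks), against 70.5% of decile 10. Closed peaks made up 1.20% of decile 1 at 8som (96 of 7990) and 69.7% of decile 10. The share increased at every step between these ends in both lists. Above the median rank 12.2% of 36 hpf peaks were opened and 15.1% of 8som peaks were closed, and below it the shares were 54.1% and 55.7%. An opened peak had a median fold enrichment of 5.43, against 7.27 for kept peaks of the same list, and a median width of 300 bp, against 369.5 bp. A closed peak had a median fold enrichment of 6.34, against 8.21 for kept peaks, and a median width of 288 bp, against 335 bp. Opened peaks were also narrower than kept peaks of the same rank decile in decile 1 and from decile 4 downwards. They were wider in decile 2 (medians of 434.5 and 414 bp) and in decile 3 (388 and 379 bp). In decile 7, for example, the median widths were 305 and 328 bp. Closed peaks were narrower than kept peaks of the same decile in deciles 1 to 9, with median widths of 335.5 and 400 bp in decile 1 and of 286 and 296 bp in decile 7, and in decile 10 the medians were 269 and 266 bp.

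**Figure D1:**
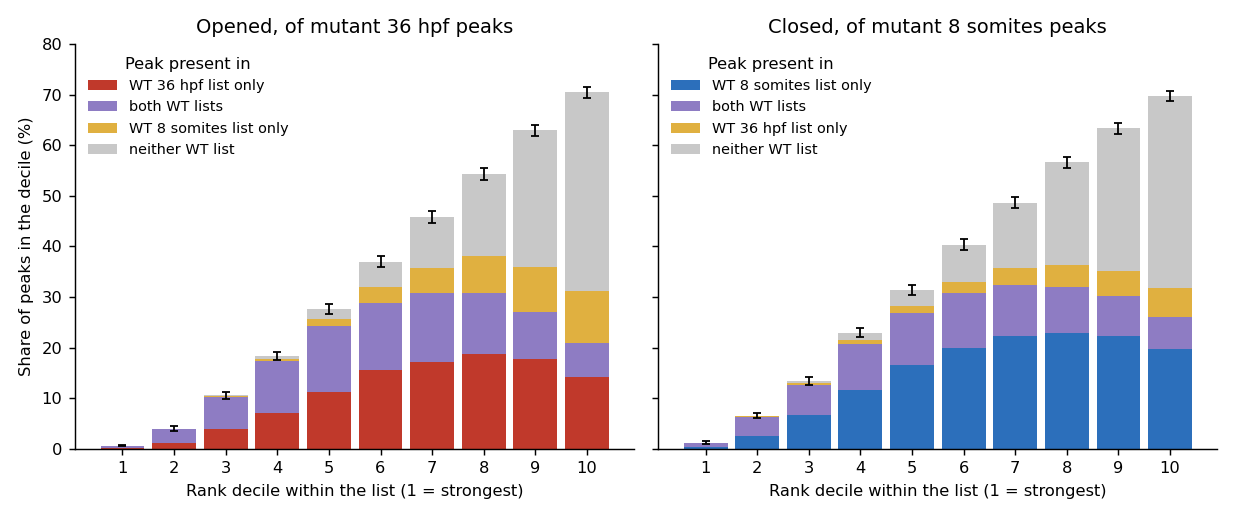
Share of mutant 36 hpf peaks that were opened (left) and of mutant 8som peaks that were closed (right), in percent (y axis), by rank decile (x axis, 1 is the strongest), with Wilson 95% intervals as error bars. Colours divide each bar by the WT lists in which the peak was present. The bars reach 70.5% and 69.7% in decile 10, where most changed peaks are in neither WT list, and are near 0 in decile 1.

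Most changed peaks lay well away from any peak of the other list. The median distance of an opened peak to the nearest 8som peak was 4893 bp, and 16.5% lay within 1 kb. The median distance of a closed peak to the nearest 36 hpf peak was 6518 bp, and 10.5% lay within 1 kb. At the border of the overlap rule stood 369 opened peaks and 193 closed peaks with a peak of the other list less than 50 bp away, and 64 peaks at 36 hpf and 40 at 8som that were kept through an overlap of at most 50 bp. The opened peaks just outside the rule had a median percentile rank of 12.1 (0 is the weakest peak of a list and 100 the strongest) and the closed ones of 11.6. Those just inside had medians of 0.772 and 0.765. Most overlaps were far from this border, since 94.7% of kept 36 hpf peaks and 93.9% of kept 8som peaks shared at least 50% of both peaks.

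The strongest opened peaks are given by position on the GRCz10 (danRer10) assembly, the build of the lists. Genes near these positions were not analysed here. Among peaks on assembled chromosomes with no 8som mutant peak within 1 kb, the highest-ranked was chr2:31732194-31732485. It ranked 83 at 36 hpf in the mutant with a fold enrichment of 17.4, ranked 5 in the WT 36 hpf list, and had no peak in either 8som list. The next was chr22:30060485-30060879, with rank 1080 and a fold enrichment of 16.5. It also had a WT peak at 36 hpf only, of rank 80. The third, chr12:47714883-47715113, had rank 2020 and a fold enrichment of 14.4, and the WT 36 hpf peak there had rank 5970. The sixth, chr22:34685761-34686483 (rank 2732, fold enrichment 15.9), completed the 4 of the top 10 that had a WT peak at 36 hpf and none at 8som. The other 6 had a peak in both WT lists: chr9:19951668-19952109, chr14:19802756-19803219, chr9:55204505-55204893, chr7:71638322-71638974, chr23:43827677-43828018 and chr13:25040470-25040928. In 5 of these 6 the WT percentile rank was higher at 36 hpf than at 8som. At chr13:25040470-25040928 it was 91.7 at 36 hpf and 32.8 at 8som, whereas at chr14:19802756-19803219 it was 99.3 and 98.4. These peaks were chosen as strong at 36 hpf, so a higher WT rank at that stage follows in part from the choice. Thus all 10 opened peaks chosen in this way were listed in WT embryos at 36 hpf. Kept 36 hpf peaks of all ranks had a WT 36 hpf peak in 88.8% of cases. The share among all peaks of such strength was not computed, so this is not read as a trait of opened peaks. A WT peak at 36 hpf was also present for every opened peak of the strongest rank decile. Of the 47 in the strongest rank decile, 14 had a WT peak at 36 hpf only and 33 at both stages.

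The 10 strongest closed peaks with no 36 hpf mutant peak within 1 kb had fold enrichments of 11.9 to 17.9 in the mutant at 8som. The first was chr11:43921043-43921347, with rank 938 and a fold enrichment of 15.7. In WT embryos this site had a percentile rank of 70.7 at 36 hpf and of 97.9 at 8som. The second, chr15:42459954-42460285 (rank 1132, fold enrichment 16.8), had WT percentile ranks of 66.2 at 36 hpf and 92.2 at 8som. The third, chr8:8868994-8869671 (rank 1192, fold enrichment 13.9), had WT percentile ranks of 46.4 and 97.7. Altogether 9 of the 10 had a peak in both WT lists, and in all 9 the WT rank was lower at 36 hpf. Percentile ranks at these 9 were 15.5 to 84.9 in the WT 36 hpf list and 89.5 to 97.9 in the WT 8som list. They were chosen as strong at 8som, so a lower WT rank at 36 hpf follows in part from the choice. These 10 closed peaks were thus mostly sites that ranked lower at 36 hpf in WT embryos and remained listed there. The exception was chr13:44057132-44057482, which ranked 1405 in the mutant at 8som with a fold enrichment of 17.5 and had no peak in the other 3 lists, the nearest mutant 36 hpf peak being 39.3 kb away. The remaining 6 were chr2:13308678-13308987, chr5:1210860-1211197, chr17:5645028-5645350, chr16:52458430-52458751, chr9:48216209-48216753 and chr3:57181537-57181850.

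Over all changed peaks, the WT lists placed the mutant changes in 4 classes. Of the opened peaks, 32.2% (8181 of 25394, interval 31.6 to 32.8%) had a WT peak at 36 hpf and none at 8som, that is, they also opened in WT embryos. A further 26.5% (6718) had a peak in both WT lists, 11.1% (2813) in the WT 8som list only, and 30.3% (7682) in neither. Of the closed peaks, 40.9% (11575 of 28295, interval 40.3 to 41.5%) had a WT peak at 8som and none at 36 hpf, that is, they also closed in WT embryos. Another 20.9% (5913) had a peak in both WT lists, 6.51% (1841) in the WT 36 hpf list only, and 31.7% (8966) in neither. Among kept peaks of the mutant, 83.0% were present in both WT lists. Of kept 36 hpf peaks, 5.83% were in the WT 36 hpf list only, 8.65% in the WT 8som list only and 2.498% in neither. Of kept 8som peaks these shares were 5.899%, 8.605% and 2.47%. Opened and closed peaks were thus closest to kept peaks in the share found only in the WT list of the other stage. Kept peaks rank higher, and these shares do not allow for rank. The WT 36 hpf list held 84703 peaks and the WT 8som list, the longest, 96625. With equal list sizes 35.8% of opened peaks also opened and 36.2% of closed peaks also closed in WT embryos. Seen from the other side, 33.1% of the 25214 peaks that opened in WT embryos also opened in mutants, and 30.8% of the 37330 that closed in WT embryos also closed in mutants.

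The class of a changed peak depended on its strength, as the plot of shares by rank decile shows. In decile 1, 70.2% of the 47 opened peaks and 62.5% of the 96 closed peaks had a peak in both WT lists, and 0 of the opened and 2 of the closed peaks were in neither. In decile 10, 55.9% of opened and 54.4% of closed peaks were in neither WT list. Kept peaks were not divided by decile, so this is not read as a trait of changed peaks. Kept 36 hpf peaks in both WT lists had a median percentile rank of 70.2, and those in neither 19.2. At 8som these medians were 70.1 and 21.7. The share that changed in the same direction in WT embryos was highest in the middle of the lists, at 42.0% of opened peaks in decile 6 and 52.5% of closed peaks in decile 5. Changed peaks present in both WT lists tended to lie where the WT percentile rank shifted in the same direction. At the opened ones, the WT percentile rank was higher at 36 hpf by a median of 10.01 points, and 65.8% of them had a positive shift. At the closed ones the median WT shift was −18.1 points and 74.9% had a negative shift. At kept 36 hpf peaks the median WT shift was −0.92 points. Changed peaks were chosen as present at 1 stage of the mutant and absent at the other. A WT shift in the same direction therefore follows in part from the choice.

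Kept peaks were matched one to one by their longest overlap, giving 50738 pairs. Their percentile ranks at 36 hpf and at 8som had a Spearman correlation of 0.670 across pairs. Both lists were ranked on values that rise with depth and peak width, and pairs are not independent replicates. WT pairs had a correlation of 0.669. In 43.3% of mutant pairs the ranks were within 10 points of each other. A rank at least 25 points higher at 36 hpf was found in 12.7% of pairs (6441), and a rank at least 25 points lower in 13.3% (6760). Shifts of at least 50 points were found in 1112 pairs upwards and in 1210 pairs downwards. Because ranks are bounded, pairs that were strong at 8som could mainly move down and weak ones up. The median percentile rank at 36 hpf was 93.8 for pairs in decile 1 at 8som and 33.1 for pairs in decile 10.

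Kept peaks were wider in the mutant at 36 hpf than at 8som. The 36 hpf peak was the wider one in 64.1% of mutant pairs, with a median difference of 21 bp, against 46.5% and −4 bp in WT pairs. The same held for whole mutant lists, with a median width of 345 bp at 36 hpf and 316 bp at 8som. Whole WT lists had medians of 320 bp at 36 hpf and 325 bp at 8som. Width moved with the rank shift: among pairs that shifted up by 25 points or more 81.4% were wider at 36 hpf (median difference 53 bp), and among those that shifted down 39.8% were (−15 bp). The part of peak width in the rank shifts was not tested. Summits, the positions of highest signal, stayed close together, with a median distance of 17 bp in mutant pairs and 79.3% within 50 bp.

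Rank shifts of the mutant were set against those of WT embryos at the 42215 pairs with a peak in all 4 lists. Across pairs the Pearson correlation was 0.524 and the Spearman correlation 0.509. Mutant and WT lists of one stage share the stage and the way embryos were collected. Within deciles of the mutant 8som rank, Pearson's r ranged from 0.363 in decile 10 to 0.722 in decile 1. Where the mutant shifted up by at least 25 points (5149 pairs), the WT shift had a median of 13.2 points, 76.2% were positive and 28.8% reached 25 points. Where the mutant shifted down by at least 25 points (4670 pairs), the WT shift had a median of −25.2 points, 86.5% were negative and 50.4% reached 25 points downwards. With equal list sizes the medians were 18.4 and −23.6 points, and the shares with the same sign 81.7% and 82.5%. WT shifts of 25 points or more against the mutant direction were found in 3.73% of the mutant pairs that shifted up and in 2.16% of those that shifted down.

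**Figure D2:**
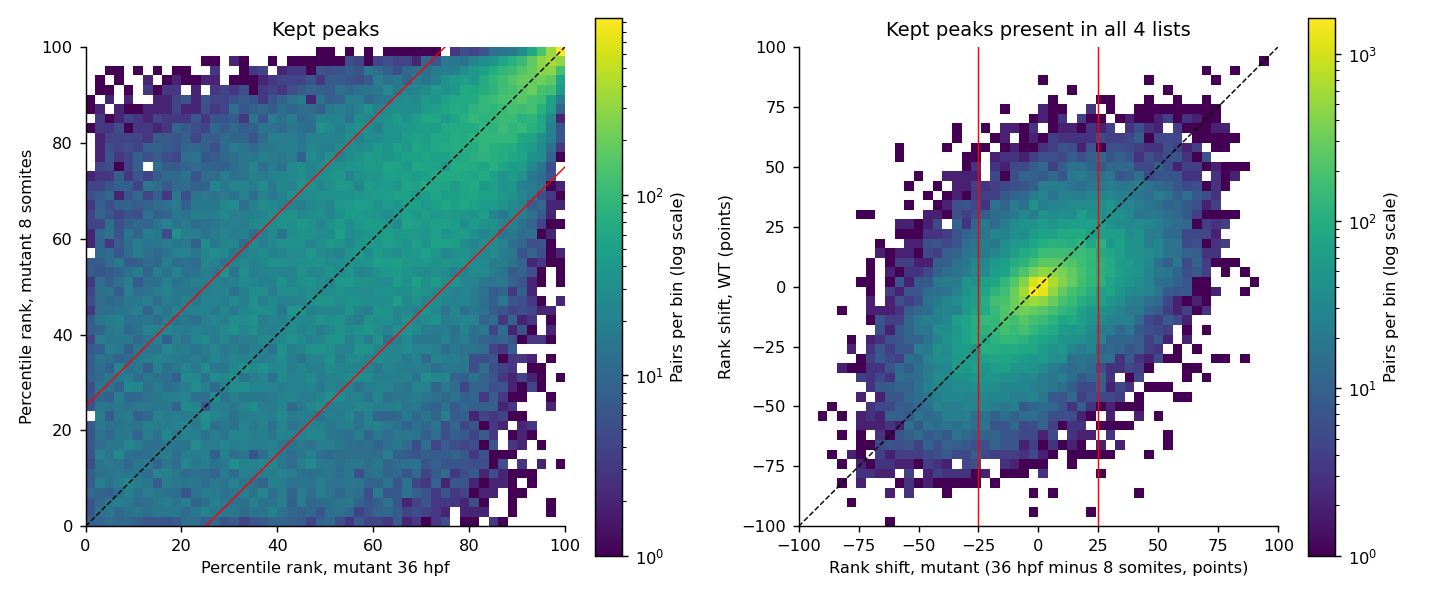
Left, percentile rank of 50738 kept peaks in the mutant at 36 hpf (x axis) and at 8som (y axis). Right, rank shift (36 hpf minus 8som, in points) in the mutant (x axis) and in WT embryos (y axis) for 42215 pairs present in all 4 lists. Colour is the number of pairs per bin on a log scale, dashed lines mark equality and red lines a mutant shift of 25 points. Ranks of the 2 stages on the left have a Spearman correlation of 0.670, and shifts of the 2 genotypes on the right a Pearson correlation of 0.524. The median WT shift was 13.2 points where the mutant shifted up by at least 25. These pairs were chosen by their mutant shift, so a smaller WT shift follows in part from the choice.

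The largest upward shifts mostly came from wide 36 hpf peaks that spanned more than 1 peak at 8som. At chr21:34623141-34624008, an 868-bp peak at 36 hpf with a percentile rank of 97.1 was paired with its longest overlap, an 8som peak of percentile rank 3.94, giving a shift of 93.1 points. A second 8som peak within the same 868 bp had a percentile rank of 98.5, close to that of the 36 hpf peak. The pairs at chr2:2976454-2977671, chr20:35155614-35156529 and chr1:23866104-23867152 were of this kind too, with a second 8som peak of percentile rank 94.7, 88.6 and 98.3. Only chr13:18128533-18128872 among the top 5 had a single peak in each list. Its fold enrichment was 9.24 at 36 hpf and 4.94 at 8som, its percentile rank 89.7 and 3.83, and WT embryos had a peak there at 36 hpf (percentile rank 89.7) and none at 8som.

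When restricted to regions with 1 peak of each list, which was done after these values were seen, the next upward shifts were at chr25:16810650-16811022, chr8:8031216-8031607, chr3:30832969-30833192 and chr3:13935408-13936291. At chr25:16810650-16811022 the mutant fold enrichment was 12.2 at 36 hpf and 4.998 at 8som, and WT percentile ranks were 76.7 at 36 hpf and 25.7 at 8som. At chr8:8031216-8031607 the mutant fold enrichment was 12.7 at 36 hpf and 5.998 at 8som, and WT percentile ranks were 92.8 and 43.2. All 5 such pairs had a WT peak at 36 hpf, and in the 4 with a WT peak at both stages the WT rank was higher at 36 hpf. They were chosen as weak at 8som and strong at 36 hpf in the mutant, so this direction follows in part from the choice. The restriction removed 240 of the 6441 upward shifts of at least 25 points and 139 of the 6760 downward ones, and left the correlation at 0.672.

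The 5 largest downward shifts, of 87.1 to 90.3 points, had a single peak in each list. At chr20:52780106-52780452 the mutant fold enrichment was 4.72 at 36 hpf and 13.2 at 8som, and WT percentile ranks were 37.9 at 36 hpf and 92.2 at 8som. At chr13:43301514-43301778 the fold enrichment was 4.91 at 36 hpf and 14.7 at 8som, and the WT list had a peak of percentile rank 98.5 at 8som and none at 36 hpf. At chr3:7836548-7836875 and chr9:23346027-23346264 the mutant percentile ranks were 2.62 and 1.29 at 36 hpf, against 91.4 and 88.9 at 8som, and again WT embryos had a peak at 8som only. The fifth was chr8:17430386-17430745, with mutant percentile ranks of 6.99 at 36 hpf and 94.1 at 8som and WT percentile ranks of 35.6 and 87.6. All 5 sites thus shifted down or lost their peak in WT embryos as well. They were chosen as strong at 8som and weak at 36 hpf in the mutant, so this direction follows in part from the choice.

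Changes in the mutant were not spread evenly along chromosomes, and over all gaps closed peaks were grouped more than opened ones. Of opened peaks on assembled chromosomes, 36.2% were followed along the chromosome by another opened peak of the 36 hpf list, against 31.7% of kept peaks. The difference was 4.52 percentage points (interval 3.80 to 5.24), and the Mantel-Haenszel odds ratio within deciles of the next peak's rank was 1.21. Of closed peaks, 41.2% were followed by another closed peak of the 8som list, against 32.1% of kept peaks, a difference of 9.18 points (interval 8.47 to 9.89) with an odds ratio of 1.45. In WT embryos the odds ratios were 1.17 for opened and 1.34 for closed peaks. The difference was largest for neighbours less than 500 bp apart, with odds ratios of 1.86 for opened and 4.76 for closed peaks. At this distance the rule itself contributes, because 1 wide peak of the other list can overlap several neighbours and keep them together. For neighbours at least 1 kb apart the odds ratios were 1.17 for opened and 1.32 for closed peaks, and for those 20 to 100 kb apart 1.25 and 1.28. Over 100 kb the odds ratios were 1.22 for opened and 1.17 for closed peaks, from only 508 opened and 446 closed peaks. In both, the intervals of changed and kept peaks overlapped at this gap, so no order is read from it. If any peak of the other list within 1 kb counted as a counterpart, which gives close neighbours the same state by construction, the difference became 11.1 points for opened peaks.

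**Figure D3:**
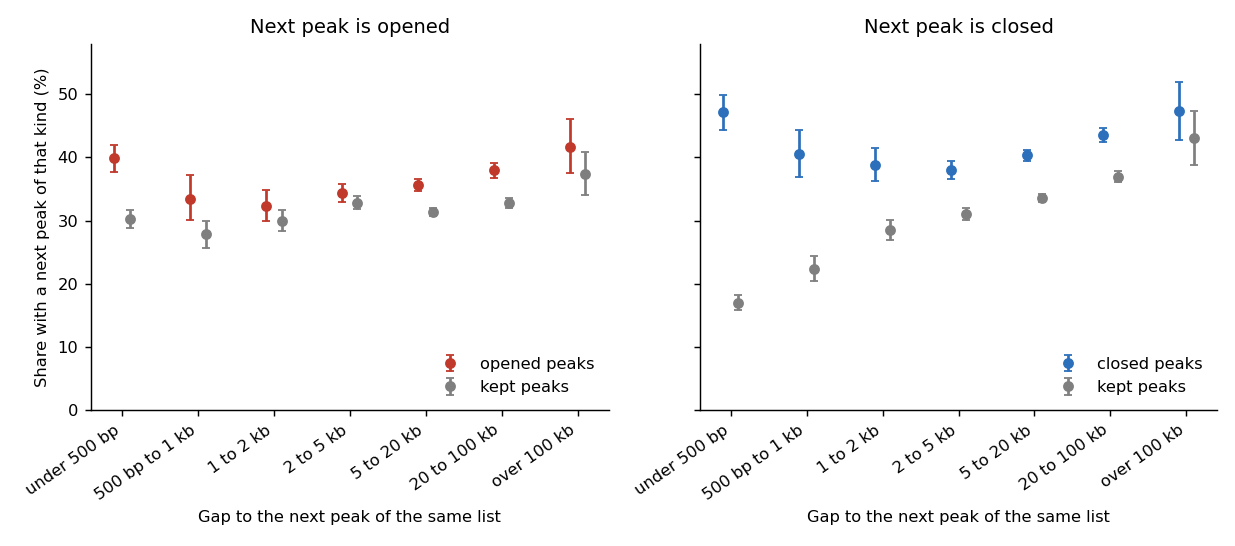
Share of peaks (y axis, percent, Wilson 95% intervals) whose next peak along the chromosome was opened (left, mutant 36 hpf list) or closed (right, mutant 8som list), by the gap to that next peak (x axis). Coloured points are opened or closed peaks and grey points kept peaks. Both closed and opened peaks lie above kept peaks at every gap, most of all under 500 bp (closed 47.1% against 17.0%, opened 39.9% against 30.2%). Opened peaks lie closest to kept peaks from 2 to 5 kb (34.4% against 32.8%). The intervals of changed and kept peaks overlap over 100 kb in both panels, and for opened peaks also from 1 to 5 kb.

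In the mutant, the number of regions around a peak varied with closing more than with opening. Of 8som peaks with no other mutant region within 50 kb, 54.2% were closed (192 of 354, interval 49.0 to 59.4%), and of those with 16 or more 27.3% were (2201 of 8052, interval 26.4 to 28.3%). Isolated peaks rank lower, and the shares expected from the rank deciles alone were 40.5% and 33.3%, so that observed over expected was 1.34 for the most isolated and 0.821 for the most crowded peaks. For opened peaks the shares were 44.9% and 31.2%, and observed over expected was 1.06 and 0.988. In WT embryos observed over expected was 1.39 for the most isolated and 0.889 for the most crowded peaks for closing, and 1.49 and 0.901 for opening.

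At the scale of 1 Mb, windows with at least 20 peaks differed in their share of changed peaks by more than independent peaks of the same ranks would. The mean squared deviation from the count expected from rank deciles, divided by its binomial variance, was 2.25 for opened peaks (1284 windows) and 2.58 for closed peaks (1305 windows), where independence would give about 1. In WT embryos it was 1.64 and 2.10. The same quantity was 1.29 and 1.34 in the mutant for windows of 100 kb and 4.86 and 5.18 for windows of 5 Mb. It grows with the number of peaks per window, so these values are not compared between window sizes. Windows in which more peaks opened than expected tended to have fewer that closed, with a Pearson correlation of −0.287 across 1282 windows in the mutant and −0.061 across 1296 in WT embryos. Between mutant and WT embryos, observed over expected correlated at 0.445 for opened peaks (1283 windows) and 0.626 for closed peaks (1305 windows). Windows along a chromosome are not independent and share the base composition and mappability of their sequence.

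**Figure D4:**
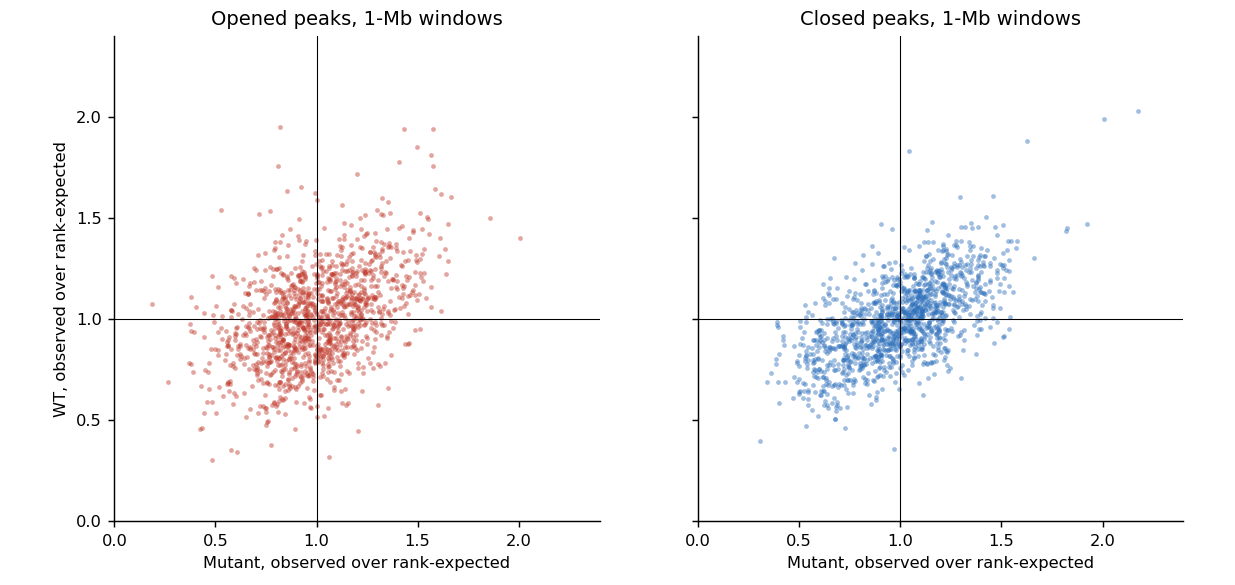
Observed over rank-expected number of opened (left) and closed (right) peaks per window of 1 Mb, in the mutant (x axis) and in WT embryos (y axis). Each point is a window with at least 20 peaks in both lists, and lines mark a ratio of 1. Points follow the diagonal more closely for closed peaks (Pearson correlation 0.626) than for opened peaks (0.445), and the 2 closed windows farthest to the upper right lie on chromosome 4.

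The window richest in opened peaks relative to expectation was at 11 to 12 Mb of chromosome 22, where 57 of 95 peaks at 36 hpf were opened (observed over expected 2.01) and the 8som list had 49 peaks. In WT embryos 34 of 90 were opened there (1.40). It was followed by 9 to 10 Mb of chromosome 12 (20 of 36 opened, 1.86, and 1.50 in WT embryos) and 10 to 11 Mb of chromosome 16 (34 of 64 opened, 1.66, and 1.60 in WT embryos). The chromosome 16 window was also the second lowest for closing, with 3 of 33 8som peaks closed (0.342), so that peaks were mainly gained there. The lowest window for closing was at 16 to 17 Mb of chromosome 22, where 7 of 62 peaks were closed (0.304), against 11 of 76 in WT embryos (0.396), and 43 of 97 peaks at 36 hpf were opened. The third was at 44 to 45 Mb of chromosome 1 (6 of 53 closed, 0.358, and 0.734 in WT embryos). The fewest opened peaks relative to expectation were at 71 to 72 Mb of chromosome 4, with 1 of 27 (0.184). In WT embryos 9 of 37 opened in that window (1.08). Of the 12 highest and lowest mutant ratios named here and below, only this 0.184 had a WT value on the other side of 1. The next lowest were 8 to 9 Mb of chromosome 5 (2 of 36, 0.265) and 50 to 51 Mb of chromosome 13 (7 of 55, 0.370).

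Closing was most concentrated on the distal part of chromosome 4. At 43 to 44 Mb, 26 of 29 mutant 8som peaks were closed (observed over expected 2.18) and 29 of 32 in WT embryos (2.03), and the mutant 36 hpf list had 4 peaks in that window. At 41 to 42 Mb, 18 of 23 were closed (2.01) in the mutant and 19 of 21 (1.99) in WT embryos. The third window, at 4 to 5 Mb of chromosome 7, had 27 of 39 closed (1.92), against 1.47 in WT embryos. Beyond 30 Mb of chromosome 4, a border chosen after these windows were seen, 50% of mutant 8som peaks were closed (303 of 606, interval 46.0 to 54.0%), against 35.1% below it (572 of 1631). In WT embryos the shares were 56.3% and 39.1%. Opening was not low there. Beyond the border 38.3% of mutant 36 hpf peaks were opened (observed over expected 1.09), against 40.8% below it (1.14). In WT embryos the opened shares were 42.0% (1.38) and 34.4% (1.07). The long arm of zebrafish chromosome 4 is known to be late replicating and rich in repeats.

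Among whole chromosomes, chromosome 4 had the highest unadjusted share of both opened (40.3%, interval 38.3 to 42.3%) and closed peaks (39.1%, interval 37.1 to 41.2%). The lowest share of opened peaks was 30.4% on chromosome 3 (interval 28.9 to 31.9%), and the lowest share of closed peaks 29.2% on chromosome 22 (interval 27.3 to 31.2%). These shares do not allow for rank. Relative to the counts expected from rank deciles, opening was still highest on chromosome 4 (1.13) and closing lowest on chromosome 22 (0.842), but closing was highest on chromosome 6 (1.06, against 1.03 on chromosome 4) and opening lowest on chromosome 7 (0.942, against 0.955 on chromosome 3). Chromosome 22 had 2278 peaks at 36 hpf and 2079 at 8som in the mutant, a ratio of 1.10 that was the highest of the 25 chromosomes. In WT embryos its ratio was 1.00, again the highest, and its share of closed peaks, 32.6%, the lowest.

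Consecutive regions of one kind formed runs. In the order of merged mutant regions along the assembled chromosomes, 3.70% of opened regions (923 of 24934) and 6.80% of closed regions (1876 of 27573) lay in runs of at least 5 of their kind. Kept regions, which were more numerous, did so in 20.7% (10296 of 49629). Of all regions in this order, 24.4% were opened, 27.0% closed and 48.6% kept. Runs form from such shares in any order, and the part expected from the shares alone was not computed. The longest opened run held 13 peaks over 189 kb at chr12:17795392-17983951. Its strongest peak had a percentile rank of 84.7 and a fold enrichment of 9.71 at 36 hpf in the mutant, and 8 of the 13 had a WT peak at 36 hpf. A WT peak was listed at 8som for 2 of them, and 4 of the 13 were in neither WT list.

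The runs differed in how far they recurred in WT embryos. At chr15:14298280-14314420, 10 opened peaks followed each other within 16.1 kb, with mutant percentile ranks from 1.66 to 73.5 and fold enrichments of up to 9.20. All 10 had a WT peak at 36 hpf and none had one at 8som, so that the whole run opened in both genotypes. The measures of strength did not go one way between the 36 hpf lists. The percentile rank was lower in the mutant list than in the WT list at all 10 peaks, whereas the fold enrichment was higher in the mutant list at 7 and lower at 3. At chr15:14311971-14312140 the mutant peak had a percentile rank of 70.8 and a fold enrichment of 8.19, against 78.0 and 6.44 in WT embryos, and at chr15:14298280-14298438 the values were 38.0 and 5.92 in the mutant, against 77.5 and 7.13 in WT embryos. Other runs of 10 lay at chr11:8322884-8382433 and chr6:34541696-34608414, where 5 peaks each also opened in WT embryos. The longest closed run held 12 peaks over 241 kb at chr15:16623643-16864285, of which 8 had a WT peak at 8som, 3 had one at 36 hpf and 4 were in neither WT list. Closed runs of 11 were found at chr11:38485470-38722928, chr19:44824084-44943217 and chr7:56836858-56933417. At chr7:56836858-56933417, 7 of the 11 also closed in WT embryos, the strongest of them with a mutant 8som percentile rank of 70.7.

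**Figure D5:**
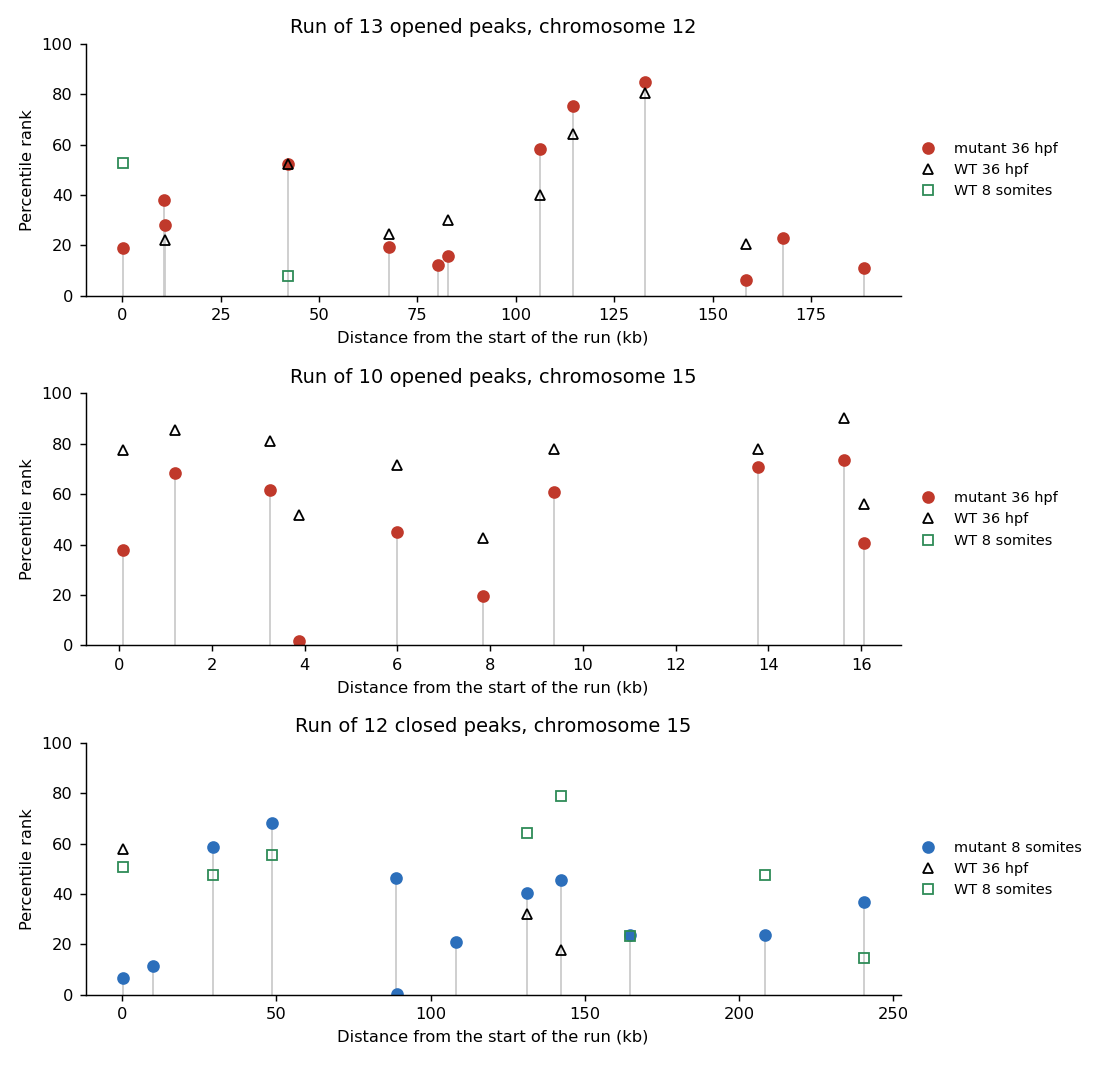
Percentile rank (y axis, 100 is the strongest peak of a list) of every peak in 3 runs of changed regions, by distance from the start of the run in kb (x axis). Filled circles are mutant peaks (36 hpf for opened runs, 8som for the closed run), triangles WT 36 hpf peaks and squares WT 8som peaks, and a missing symbol means that the list had no peak. In the run of 10 on chromosome 15 every opened peak has a WT 36 hpf peak of higher rank and no WT 8som peak, although the fold enrichment, which is not drawn, was higher in the mutant at 7 of the 10.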

How the data were processed

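ATAC-seq was performed by the authors on 8 libraries, 2 per group. Reads were aligned to GRCz10 (danRer10), mates more than 2 kb apart were removed, and Tn5 cut sites were offset and widened by 5 bp. Bowtie2 and SAMtools are named in the submitters' processing notes without versions, and the peak caller is not given in the sources used here. In the deposited lists each peak has a fold enrichment (a ratio), a −log10 p-value, a −log10 IDR (a score of reproducibility) and a summit offset, which the authors computed from both replicates. The lists have no header, and these columns were identified from their values and the usual layout of IDR peak files. Every deposited peak had an IDR of at most 0.1. A peak missing from a list can have signal just under that threshold.

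Lists were matched with at least 1 bp of overlap, and pairs were each other's longest overlap. Expected counts used the share of changed peaks per rank decile. Peaks named were the 10 strongest per direction with no other-stage peak within 1 kb, the 5 largest shifts, the 3 highest and 3 lowest windows, and the runs of the 2 greatest lengths. Intervals of differences were formed from both Wilson intervals. Alternatives are given in the closing section. The groups compared, the rules and the alternatives were chosen with earlier results of these data known. Gene lists and motifs were not analysed here. Python 3.11.15, numpy 2.4.6, pandas 2.3.3, scipy 1.17.1 and matplotlib 3.10.9 were used. All 9 overlap counts computed on simulated and deposited peaks were identical to those of bedtools 2.31.1.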

Additional observations from a re-analysis of the deposited data

How the results depend on the processing

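Of 53 values under other settings, 16 stayed within the 95% interval of the reported value and 37 moved beyond it. A change of sign, found in 0 of them, was possible only for the neighbour differences and the correlation, since shares cannot be negative. The intervals take peaks as independent, although changed peaks were grouped along chromosomes, so they are too narrow. All settings also reuse peaks of the same lists, so these counts do not measure robustness. The order below is opened share, closed share, opened and closed neighbour difference (percentage points), rank correlation, and opened and closed peaks that changed likewise in WT embryos, leaving out values that stayed. Requiring that 50% of each peak be covered, the shares were 36.7% and 39.3%, the closed difference 7.94, the correlation 0.675 and the WT shares 31.1% and 38.8%. With counterparts within 1 kb, the shares were 27.7% and 31.7%, the differences 11.1 and 13.5 and the closed WT share 41.5%. With equal list sizes they were 34.1%, 33.8%, 8.08 (closed), 35.8% and 36.2%. With equal sizes and ranking by fold enrichment they were 34.7%, 34.5%, 3.78 (opened), 0.686, 34.7% and 34.9%. An IDR of at most 0.05 gave 33.0% (closed), 0.663, 35.8% and 44.2%, and one of at most 0.01 gave 34.7%, 29.2%, 5.34 (opened), 0.658, 40.8% and 48.4%. Above the median rank the shares were 12.2%, 15.1%, 38.5% and 50.03%. Assembled chromosomes alone moved no value. Chosen after seeing the data were neighbours at least 1 kb apart (closed difference 7.22, opened 3.97) and regions with 1 peak of each list (0.672). The causes of these moves were not tested. The main limits are that each group had 1 list, that the depth and sequencer of each library are unknown, and that stage goes with pooling of embryos. No paired analysis was possible because each list pools both replicates, and leaving out a replicate could not be done for the same reason.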

Other observations

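Outside the assembled chromosomes, 1528 peaks of the mutant 36 hpf list and 1797 of the mutant 8som list lay on unplaced scaffolds. The mitochondrial genome held 0 peaks at 36 hpf and 2 at 8som. Of the peaks off assembled chromosomes, 30.1% (460 of 1528, interval 27.9 to 32.5%) were opened at 36 hpf and 40.1% (722 of 1799, interval 37.9 to 42.4%) were closed after 8som.

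Among the 100 strongest opened peaks with no 8som mutant peak within 1 kb, 30 had a WT peak at 36 hpf only, 69 had one at both stages, 1 had one at 8som only and 0 had none. Among the 100 strongest closed peaks chosen likewise, 37 had a WT peak at 8som only, 61 had one at both stages and 2 had none. Extending both sets to 1000 peaks gave 621 opened and 534 closed peaks with a WT peak at both stages, the largest class in each. A WT peak at 36 hpf only was found for 355 opened and 15 closed peaks. One at 8som only was found for 14 opened and 429 closed peaks, and 10 opened and 22 closed peaks were in neither WT list.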
